A study of Oncorhynchus mykiss with 12 samples.

Results

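The melanocortin receptor genes, the agouti-family genes that encode their antagonists and the pomc genes that encode their ligands were followed in dorsal skin of rainbow trout (Oncorhynchus mykiss). Members were the rows of the RNA-Seq table whose gene symbol, ignoring case, named mc1r to mc5r, asip, agrp or pomc, with any copy ending. The rule found 18 genes among 42290 entries, made up of 10 receptor genes, 5 agouti-family genes and 3 pomc genes. The groups were 3 wild-type and 3 yellow mutant RNA-Seq samples, and by the series text fish of either genotype were F1 progeny of a cross of wild-type males with yellow mutant females. Yellow mutants are a colour variety, and the labels give neither their mutated gene, nor the age or sex of the fish, nor whether a sample is 1 fish or a pool. Each p-value therefore measures the spread between these samples, which may be technical.

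Melanocortin signalling sets how dark the skin of a vertebrate is. The pituitary cleaves the pomc product into alpha-MSH and ACTH, and alpha-MSH binds Mc1r on pigment cells, where cAMP rises and melanin synthesis and pigment dispersal follow. Agouti signalling protein blocks or reverses this at the receptor, while the agouti-related protein Agrp blocks melanocortin receptors in the hypothalamus. In zebrafish a dorsal-to-ventral difference in asip1 helps to make the back dark and the belly pale. Trout carry extra copies of many of these genes from a genome duplication in the salmonid line, and since the handling of reads that match several copies is not described, values of single copies are uncertain.

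Columns of the table summed to 396278 to 428561 FPKM, a unit that divides fragments by transcript length and by library total, so that levels of different genes can be set side by side. Absolute depth is unknown. Relative to wild-type replicate 1, depth estimated from the spacing of low values was 0.903 to 0.942 in the other wild-type libraries and 0.582 to 1.01 in the yellow mutant libraries, lowest in yellow mutant replicate 2. Keratinocyte genes, the defining genes of epidermis, summed to 1725 to 2101 FPKM in wild-type and to 2133 to 2621 FPKM in yellow mutant libraries, and krt18 had a copy listed at 0. The samples thus carried markers of the epidermis of the labelled tissue. Skeletal muscle genes were high as well, at 1501 to 4019 FPKM summed in wild-type and 2158 to 5533 FPKM in yellow mutant libraries.

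Of the 18 genes, 8 were at or above 0.5 FPKM in at least 3 libraries and entered the test, and 10 lay below that filter. The genes tested were 5 receptor genes (mc5ra, 2 copies of mc1r, a copy of mc4r and mc2r) and 3 agouti-family genes (asip2b and both Agrp copies). Of these, 1 receptor gene passed the threshold over all genes in the comparison of genotypes, mc5ra, and it was higher in yellow mutant skin. Over all 27268 genes tested, 9 or 0.033% were called higher and 0 were called lower (limma, Benjamini-Hochberg). At an unadjusted p under 0.05, 930 were higher and 707 lower (limma).

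**Figure D1:**
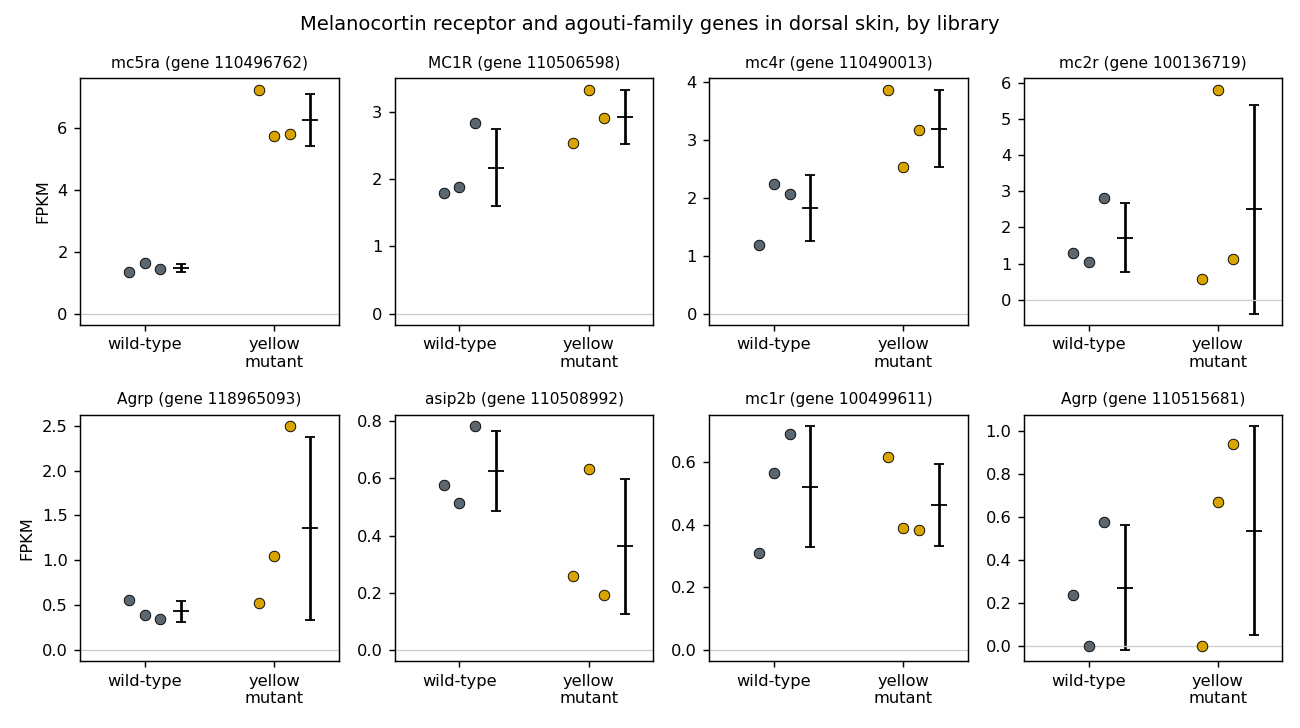
FPKM (vertical axis, linear, a scale of its own in each panel) of the 8 genes tested, in each of 3 wild-type (grey) and 3 yellow mutant (gold) libraries, with the mean and SD beside the points. The 3 yellow mutant libraries lie above the 3 wild-type libraries for mc5ra and for mc4r (gene 110490013), and the genotypes overlap in the other 6 panels.

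mc5ra (gene 110496762) encodes a melanocortin 5 receptor, a type known in mice for its role in exocrine glands of the skin. Its level was 1.36, 1.625 and 1.434 FPKM in wild-type replicates 1, 2 and 3, and 7.253, 5.735 and 5.824 FPKM in yellow mutant replicates 1, 2 and 3. The genotypes were far apart, with wild-type libraries close to each other and yellow mutant replicate 1 the highest of all. The mean rose from 1.47 ± 0.137 to 6.27 ± 0.852 FPKM (SD, n = 3 each), or 4.26-fold. The log2 fold change on the scale of log2(FPKM + 1) was 1.55 with a standard error of 0.14 and a 95% interval of 1.24 to 1.86 (limma, Benjamini-Hochberg adjusted p = 0.0188). By p-value it stood at place 5 of the 27268 genes tested and by size of rise at place 34. In the authors' deposited table its log2 fold change was 2.09 with an FDR of 1.26e-13, and 138 of 42290 entries, 0.326%, had an FDR under 0.05, mc5ra being the 1 member among them.

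The size of the mc5ra rise moved little when libraries were left out, at 1.46 to 1.60 on the log2 scale, but the call did not hold in 4 of these 6 fits. The adjusted p was 0.0681, 0.134 and 0.0896 without wild-type replicates 1, 2 and 3, 0.125 without yellow mutant replicate 3, and 0.0447 and 0.0393 without replicates 1 and 2 of that genotype (limma, Benjamini-Hochberg). A fit that also held log2 relative depth gave 0.0883.

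mc1r encodes the alpha-MSH receptor of pigment cells and was present as a pair of copies. The more abundant copy, MC1R (gene 110506598), measured 1.788, 1.883 and 2.829 FPKM in wild-type replicates 1 to 3, against 2.528, 3.326 and 2.904 FPKM in yellow mutant replicates 1 to 3. Wild-type replicate 3 lay within the yellow mutant range, and the other wild-type libraries lay below it. The means were 2.17 ± 0.576 and 2.92 ± 0.399 FPKM (SD, n = 3 each), with a log2 fold change of 0.32 and a 95% interval of -0.07 to 0.70 (limma, Benjamini-Hochberg adjusted p = 0.873). The second copy, mc1r (gene 100499611), measured 0.31, 0.564 and 0.687 FPKM in wild-type replicates 1 to 3, against 0.614, 0.389 and 0.383 FPKM in yellow mutant replicates 1 to 3. These values overlapped throughout, with a log2 fold change of -0.05 and a 95% interval of -0.39 to 0.29 (limma, Benjamini-Hochberg adjusted p = 0.981). Gene 110506598 carried 77.0% to 85.2% of the FPKM of both copies in wild-type and 80.5% to 89.5% in yellow mutant libraries. The copies together summed to 2.69 ± 0.739 and 3.38 ± 0.298 FPKM (SD, n = 3 each).

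mc4r, whose product acts in the brain to limit food intake in mammals, had 4 copies in the table, and 1 of them carried most of the signal. That copy, mc4r (gene 110490013), measured 1.178, 2.229 and 2.066 FPKM in wild-type replicates 1 to 3, against 3.866, 2.531 and 3.174 FPKM in yellow mutant replicates 1 to 3. Each yellow mutant library was above each wild-type library, by the least between wild-type replicate 2 and yellow mutant replicate 2. Among all genes tested, 6.07% had the yellow mutant libraries entirely above and 4.92% entirely below the wild-type libraries. The means were 1.82 ± 0.566 and 3.19 ± 0.668 FPKM (SD, n = 3 each), and the log2 fold change of 0.58, with a 95% interval of 0.13 to 1.03, missed the threshold (limma, unadjusted p = 0.0187, Benjamini-Hochberg adjusted p = 0.748). Unadjusted p-values under 0.05 occurred on the higher side in 3.41% and on the lower side in 2.59% of genes tested, and among the 8 members only mc5ra and this copy had one.

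Another mc4r copy (gene 110530343) was listed at 0 in wild-type replicates 1 and 2 and in yellow mutant replicate 2, at 0.097 FPKM in wild-type replicate 3, and at 0.475 and 0.162 FPKM in yellow mutant replicates 1 and 3. After scaling by relative depth these values lay at whole multiples, within 0.1 read, of a single step, and the smallest read numbers that fit were 2 for wild-type replicate 3, 11 for yellow mutant replicate 1 and 3 for yellow mutant replicate 3. True numbers may be a multiple of these. The third copy (gene 110508705) was above 0 only in wild-type replicate 2, at 0.039 FPKM, and the fourth (gene 110535569) only in yellow mutant replicate 2, at 0.065 FPKM.

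mc2r (gene 100136719), the ACTH receptor, which in the adrenal gland of mammals drives steroid synthesis, varied more within a genotype than between genotypes. It measured 1.304, 1.028 and 2.82 FPKM in wild-type replicates 1 to 3, against 0.569, 5.81 and 1.115 FPKM in yellow mutant replicates 1 to 3. Yellow mutant skin held both the lowest and the highest library, and the highest, replicate 2, is also the library of least depth. The log2 fold change was 0.11 with a 95% interval of -1.25 to 1.48 (limma, Benjamini-Hochberg adjusted p = 0.993). The value turned to -0.52 when yellow mutant replicate 2 was left out, to -0.07 when wild-type replicate 2 was left out and to -0.66 when log2 relative depth was a covariate (limma, Benjamini-Hochberg adjusted p = 0.746, 1.0 and 0.654). Whether depth has a part in this value was not tested further.

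Mammalian MC2R needs the accessory protein MRAP to reach the cell surface, and MRAP2 modulates other melanocortin receptors. Here mrap (gene 100653475) and an mrap2a copy (gene 100653482) were listed at 0 in all 6 libraries. The other mrap2a copies were at 0 to 0.16 FPKM (gene 110529368) and at 0 to 0.065 FPKM (gene 110539045). None of these 4 genes reached the filter. Mc3r, a receptor tied to energy balance in mammals, was listed at 0 in every library for 1 copy (gene 110491071), and for the other (gene 110533026) at 0.025 FPKM in yellow mutant replicate 1 and at 0 in the rest.

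**Figure D2:**
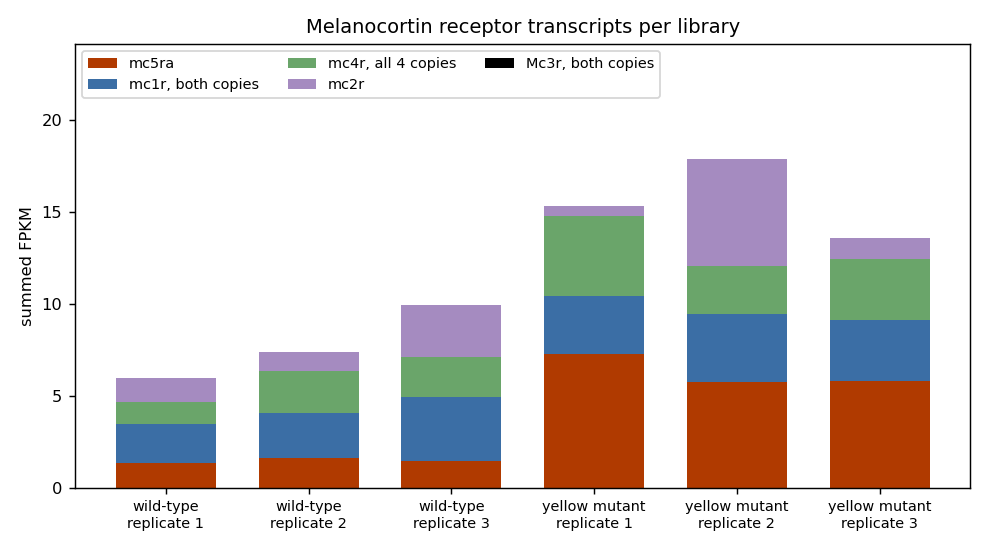
Summed FPKM of the 10 melanocortin receptor genes in each library (vertical axis, linear, from 0), stacked by receptor type. The stacks reach 5.94 to 9.93 FPKM in wild-type and 13.6 to 17.9 FPKM in yellow mutant libraries, and the mc5ra segment makes up 32.1% to 47.3% of the latter.

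Summed over the 10 receptor genes, receptor transcripts came to 5.94, 7.368 and 9.933 FPKM in wild-type libraries, against 15.33, 17.856 and 13.562 FPKM in yellow mutant replicates 1 to 3. All 3 yellow mutant sums lay above all 3 wild-type sums, the means being 7.75 ± 2.02 and 15.6 ± 2.16 FPKM (SD, n = 3 each). These sums hold mc5ra, the member past the threshold, and mc2r, which was at 5.81 FPKM in yellow mutant replicate 2. They therefore do not show a rise of the receptors as a class. mc5ra provided 14.4% to 22.9% of this sum in wild-type and 32.1% to 47.3% in yellow mutant libraries. The mc1r copies provided 33.2% to 35.4% and 20.5% to 24.2%. The mc4r copies ranged from 19.8% to 30.8% and from 14.5% to 28.3%, and mc2r from 14.0% to 28.4% and from 3.71% to 32.5%. As these are shares of 1 sum, a lower share of one follows in part from a higher share of another.

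The place of mc5ra among the receptor genes differed between the genotypes. In wild-type skin the 4 leading receptor genes were MC1R (gene 110506598), mc4r (gene 110490013), mc2r and mc5ra by mean level. Neighbours in this order overlapped and did not differ beyond their spread, while the first and the last did not overlap, MC1R being above mc5ra in all 3 libraries. mc5ra stood at place 2, 3 and 4 of the 5 receptor genes tested in wild-type replicates 1, 2 and 3. It stood at place 1 in yellow mutant replicates 1 and 3 and at place 2 in replicate 2, where mc2r was at 5.81 and mc5ra at 5.735 FPKM. In yellow mutant skin mc4r and MC1R followed mc5ra without reaching its range, and did not differ from each other beyond their spread. By its mean over all 6 libraries mc5ra was at the percentile 73.5 of all entries in the table, MC1R at 63.3, mc4r at 62.9 and mc2r at 58.7.

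**Figure D3:**
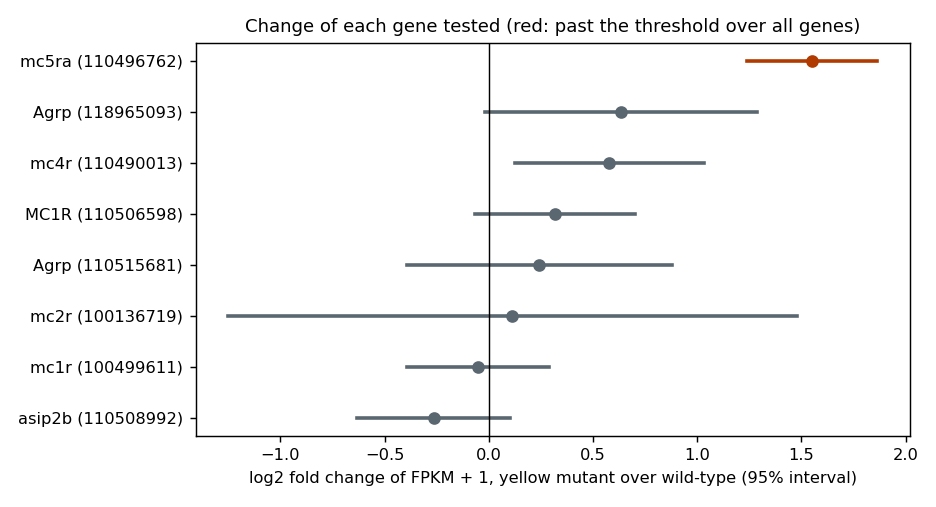
Log2 fold change of FPKM + 1 between yellow mutant and wild-type skin (horizontal axis) for each of the 8 genes tested, with the 95% interval from limma as a line. The interval of mc5ra, drawn in red, runs from 1.24 to 1.86, that of mc4r (gene 110490013) lies above 0 as well, and the other 6 include 0.

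The agouti family was low in dorsal skin of both genotypes, and no member passed the test. Over all 5 genes the family summed to 1.411, 1.022 and 1.797 FPKM in wild-type and to 0.813, 2.38 and 3.627 FPKM in yellow mutant replicates 1 to 3. The lowest and the 2 highest sums were all in yellow mutant libraries, so that the genotypes overlapped.

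ASIP and asip1 encode agouti signalling proteins, the melanocortin antagonists that lighten fur in mice and belly skin in fish. ASIP (gene 110527646) measured 0.028, 0.015 and 0.093 FPKM in wild-type replicates 1 to 3, against 0.028, 0.024 and 0 FPKM in yellow mutant replicates 1 to 3. The smallest whole reads behind these values were 2, 1, 6, 2, 1 and 0 in that order, 12 in all, again up to a common multiple. asip1 (gene 100431176) was listed at 0 in 5 libraries and at 0.103 FPKM in wild-type replicate 2. A further entry described as agouti-signaling protein-like (gene 118965524) has no symbol and is no member by the rule. Its level was 0.037 to 0.07 FPKM in wild-type libraries and 0, 0.121 and 0 FPKM in yellow mutant libraries. At these levels a difference between genotypes was not detectable.

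asip2b (gene 110508992), an agouti-family gene of teleost fish, had the highest mean of the agouti genes in wild-type skin, in a range that overlapped that of Agrp (gene 118965093). It measured 0.578, 0.514 and 0.781 FPKM in wild-type replicates 1 to 3, against 0.26, 0.632 and 0.194 FPKM in yellow mutant replicates 1 to 3. Yellow mutant replicates 1 and 3 were below all wild-type libraries, and replicate 2 was within their range. The means were 0.624 ± 0.139 and 0.362 ± 0.236 FPKM (SD, n = 3 each), with a log2 fold change of -0.26 and a 95% interval of -0.63 to 0.10 (limma, Benjamini-Hochberg adjusted p = 0.893).

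Agrp, the agouti-related protein that blocks melanocortin receptors in the hypothalamus, had a pair of copies. Agrp (gene 118965093) measured 0.564, 0.39 and 0.344 FPKM in wild-type replicates 1 to 3, against 0.525, 1.054 and 2.492 FPKM in yellow mutant replicates 1 to 3. Yellow mutant replicate 1 lay within the wild-type range, and replicate 3 set most of the difference of means, 0.433 ± 0.116 against 1.36 ± 1.02 FPKM (SD, n = 3 each). Its log2 fold change of 0.63 had a 95% interval of -0.02 to 1.29 (limma, Benjamini-Hochberg adjusted p = 0.843) and was 0.31 without yellow mutant replicate 3. The other copy, Agrp (gene 110515681), measured 0.241, 0 and 0.579 FPKM in wild-type replicates 1 to 3, against 0, 0.67 and 0.941 FPKM in yellow mutant replicates 1 to 3. It was listed at 0 in 1 library of each genotype, and the log2 fold change was 0.24 with a 95% interval of -0.39 to 0.88 (limma, Benjamini-Hochberg adjusted p = 0.946).

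The 3 pomc genes, pomca (genes 100136771 and 118944361) and pomcb (gene 100136772), were listed at 0 in all 6 libraries. Genes of the pituitary, where pomc is mainly expressed, were near 0 too. Of 18 entries of the pituitary list, which holds hormone and transcription factor genes of that gland, 14 were listed at 0 throughout and 0 reached the filter. The list summed to 0.093 to 0.117 FPKM in wild-type and to 0 to 0.193 FPKM in yellow mutant libraries. An entry at 0 in a table without counts may also be a failed estimate, and no limit on the pomc level can be given without the depth.

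The median log2 fold change of all genes tested was 0.01, and 53.0% of them were higher in yellow mutant skin. Over the 8 members tested the median was 0.28, with 6 genes higher and 2 lower. The 4 members at 0 in every library and the 6 others below the filter are not in this median. In the authors' deposited table the FDR of the 17 members other than mc5ra was 0.624 to 1.0.

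The genes around the receptors were looked up by their order in RefSeq, assembly USDA_OmykA_1.1, in which all 18 members were found, with up to 4 protein-coding neighbours on each side. mc2r is on no placed chromosome there, so it has no neighbours here. The neighbours of mc5ra that entered the test did not share its rise. Those tested were FUCA1, gja4, ldlrad4a and znf706, with log2 fold changes of -0.01, -0.13, -0.05 and 0.06 (limma, Benjamini-Hochberg adjusted p of 0.947 or more). mc5ra itself was at 1.55 on the same scale. Dlgap3 and DCSTAMP, also neighbours, were below the filter and not tested. Dlgap3 was at 0.011 to 0.061 FPKM in wild-type and higher, at 0.095 to 0.114 FPKM, in yellow mutant libraries. Such a lack of overlap, with the yellow mutant higher, was seen in 6.07% of all genes tested, and with it lower in 4.92%. Dlgap3 is not among the genes tested, and the share among genes below the filter was not counted. DCSTAMP overlapped, at 0.071 to 0.47 FPKM in wild-type and 0.087 to 0.21 FPKM in yellow mutant libraries.

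MC1R and mc1r lay in matching surroundings. Next to both copies stood a tcf25 copy on one side and a TUBB3 copy on the other, followed by copies of def8, Afg3l1 and DBNDD1. Around MC1R (gene 110506598) the 7 neighbours tested had log2 fold changes of -0.09 to 0.56, and around mc1r (gene 100499611) the 7 neighbours tested had -0.20 to 0.23. None passed (limma, Benjamini-Hochberg adjusted p of 0.830 or more). Around mc4r (gene 110490013) the 6 neighbours tested had log2 fold changes of -0.06 to 0.67. None of these passed either (limma, Benjamini-Hochberg adjusted p of 0.733 or more). The highest, CDH10, measured 1.597, 1.816 and 1.473 FPKM in wild-type and 2.042, 4.648 and 3.276 FPKM in yellow mutant replicates 1 to 3. Such a lack of overlap was seen in 6.07% of all genes tested, and with the yellow mutant lower in 4.92%. The Agrp copies both had an atp6v0d1 and a CTRB1 copy beside them, and ASIP and asip1 both had copies of chmp4b, an initiation factor 2 beta subunit gene, a Raly gene and an adenosylhomocysteinase gene close by. CTRB1 beside Agrp (gene 118965093) was below the filter, at 0 to 0.065 FPKM in wild-type and 0.333 to 0.612 FPKM in yellow mutant libraries. The other CTRB1 copy overlapped, at 0.196 to 7.323 and 3.752 to 4.185 FPKM. zdhhc1, also near Agrp (gene 118965093), was lower, at 1.516 to 1.851 and 0.829 to 1.191 FPKM (limma, Benjamini-Hochberg adjusted p = 0.748).

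**Figure D4:**
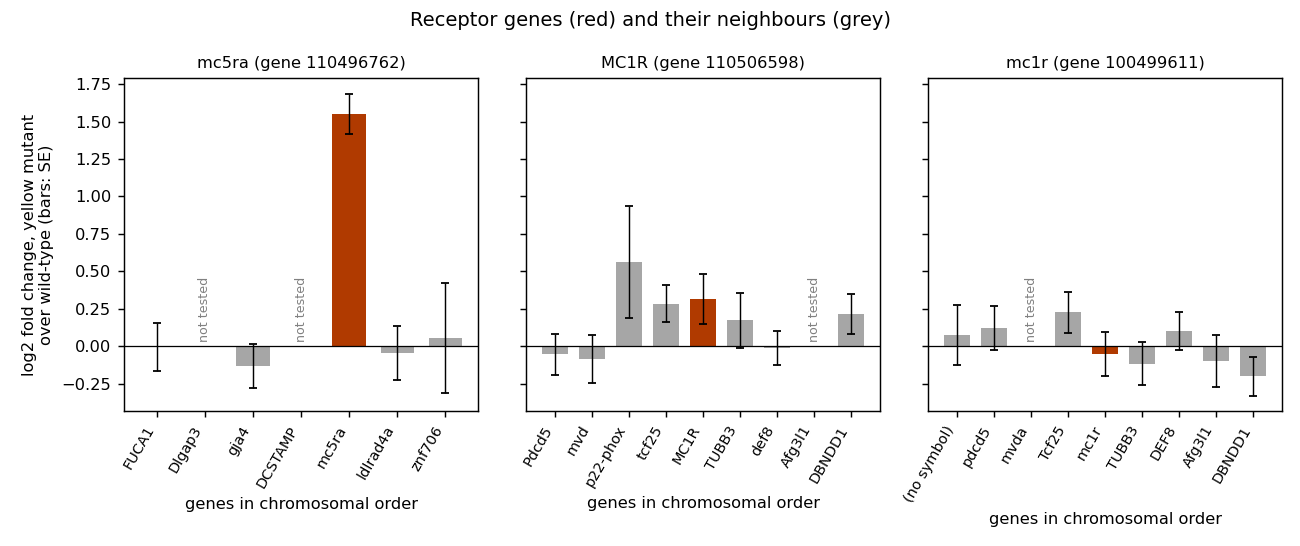
Log2 fold change of FPKM + 1 between yellow mutant and wild-type skin (vertical axis, error bars SE from limma) for mc5ra, MC1R (gene 110506598) and mc1r (gene 100499611) in red and for their protein-coding neighbours in grey, in chromosomal order. The bar of mc5ra is at 1.55, and its tested neighbours lie between -0.13 and 0.06.

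For 3 members the genes with the most alike profile were sought among 21922 named genes with a mean of at least 1 FPKM, by the root mean square difference of centred log2(FPKM + 1) values over the 6 libraries. Nearest to mc5ra were si:dkey-73n8.3 (0.12), uraha (0.16), which acts in urate breakdown, CISH (0.17), a feedback inhibitor of cytokine signalling, slc30a8 (0.17), a zinc transporter, and Tmem130 (0.20). As mc5ra was higher in all yellow mutant libraries, genes picked for likeness to it are higher there by that choice. Their values by genotype are thus no separate result. CISH (gene 110528417) measured 0.463, 0.605 and 0.276 FPKM in wild-type replicates 1 to 3, against 3.066, 2.021 and 2.989 FPKM in yellow mutant replicates 1 to 3, and missed the threshold (limma, Benjamini-Hochberg adjusted p = 0.0751). Of these 5 genes slc30a8 passed (limma, Benjamini-Hochberg adjusted p = 0.0255), but not when any library was left out (0.0609 to 0.159), with the replicate numbers as a block (0.0905) or with the depth covariate (0.106). Nearest to MC1R (gene 110506598) were Kctd5 (0.03), Samd1 (0.04), wnt5a (0.04) and gcshb (0.04). Nearest to Agrp (gene 118965093) were tmem119a (0.12), ITGA10 (0.13), nlrp1 (0.15), PCBP4 (0.15) and Bmper (0.16). With 6 libraries and so many genes some profiles lie close by number alone, and nothing about shared control follows.

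**Figure D5:**
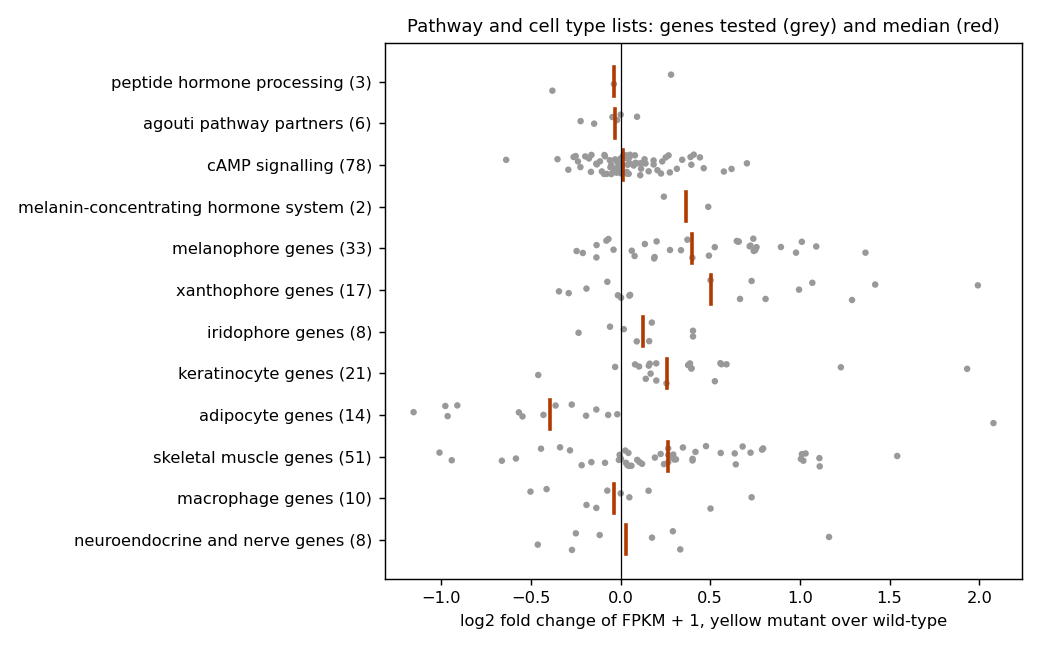
Log2 fold change of FPKM + 1 between yellow mutant and wild-type skin (horizontal axis) of the genes tested in each pathway or cell type list (grey points, number tested in brackets) with the median of the list (red line). The medians of the melanophore and xanthophore lists are 0.40 and 0.50, that of cAMP signalling is 0.02 and that of the adipocyte list is -0.40.

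Genes that act before and after the receptors were read from lists of pathway members. In the list of peptide hormone processing, whose enzymes cut and modify precursors such as the pomc product, 11 genes were in the table and 3 were tested, with 0 past the threshold and 0 at an unadjusted p under 0.05. Of all genes tested 0.033% were called higher, and 3.41% were higher and 2.59% lower at that unadjusted p (limma). With 3 genes tested, counts of 0 do not set this list apart. pcsk2 (gene 110528870), a convertase that helps to release alpha-MSH, measured 17.241, 14.251 and 9.195 FPKM in wild-type replicates 1 to 3, against 11.575, 6.431 and 12.77 FPKM in yellow mutant replicates 1 to 3, so that the genotypes overlapped. Below the filter, 2 convertase genes did not overlap. PCSK2 (gene 110502463) was at 0.096 to 0.148 FPKM in wild-type and higher, at 0.213 to 0.511 FPKM, in yellow mutant libraries. PCSK1 (gene 110493995) was at 0.187 to 0.359 FPKM in wild-type and lower, at 0.086 to 0.123 FPKM, in yellow mutant libraries. The share without overlap among genes below the filter was not counted. The list was led by prcp (gene 110513067), whose product inactivates alpha-MSH in mice, at 9.27 ± 2.03 and 11.4 ± 1.88 FPKM (SD, n = 3 each; limma, Benjamini-Hochberg adjusted p = 0.90). The amidating enzyme gene pam was at 10.8 ± 0.65 and 10.5 ± 0.864 FPKM (SD, n = 3 each).

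The partners of agouti known from mouse coat colour, attractin, its relative Atrnl1 and the ubiquitin ligase mahogunin, were expressed well above agouti itself. Of 7 entries in this list 6 were tested, 0 passed and 0 had an unadjusted p under 0.05 (limma), and the median log2 fold change was -0.03. Of all genes tested 0.033% were called higher, and 3.41% were higher and 2.59% lower at that unadjusted p (limma). For the ATRN copies wild-type skin had 4.71 ± 1.34 and 2.70 ± 0.205 FPKM, against 4.02 ± 1.73 and 2.74 ± 0.741 FPKM in the yellow mutant (SD, n = 3 per genotype). mgrn1b (gene 110538458), a mahogunin gene and the member with the smallest p, was at 6.85 ± 0.18 and 6.22 ± 1.66 FPKM (SD, n = 3 each; limma, Benjamini-Hochberg adjusted p = 0.954). corin, a serine peptidase gene of this list, lay below the filter and was not tested. It was at 0.087 to 0.19 FPKM in wild-type and at 0.199 to 0.538 FPKM in yellow mutant libraries, without overlap. Yellow mutant libraries lay entirely above the wild-type libraries in 6.07% and entirely below in 4.92% of all genes tested. These shares leave out genes below the filter such as corin, for which none was counted.

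Melanin-concentrating hormone pales fish skin and thus opposes alpha-MSH. Of 9 entries of this system 4 were listed at 0 throughout, among them mch1 and mch2, and the 2 tested were receptor genes. MCHR2 (gene 110489484) measured 3.181, 3.633 and 5.945 FPKM in wild-type replicates 1 to 3, against 6.605, 4.434 and 7.995 FPKM in yellow mutant replicates 1 to 3, with overlap between wild-type replicate 3 and yellow mutant replicate 2. Its log2 fold change was 0.49 (limma, Benjamini-Hochberg adjusted p = 0.868), and that of MCHR2 (gene 110504489) was 0.24. Both reached levels above those of MC1R in every library.

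Downstream of the receptors, the cAMP signalling list of stimulatory G proteins, adenylyl cyclases, protein kinase A subunits, CREB factors and phosphodiesterases had 97 entries and 78 tested. None passed over all genes, 4 had an unadjusted p under 0.05, all higher in yellow mutant skin (limma), and the median log2 fold change was 0.02. Over all genes tested 3.41% were higher at that p and 2.59% lower. The smallest p belonged to prkar2ab (gene 110494975), a regulatory subunit of protein kinase A, at 0.875 ± 0.0677 and 1.56 ± 0.312 FPKM (SD, n = 3 each; limma, Benjamini-Hochberg adjusted p = 0.733).

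Genes of pigment cells, which can carry these receptors, were read from lists as well. Over all genes tested 53.0% were higher in yellow mutant skin, 3.41% were higher and 2.59% lower with an unadjusted p under 0.05, and 0.033% were called higher (limma). In the melanophore list 26 of 33 genes tested were higher, 16 with an unadjusted p under 0.05 and 0 past the threshold (limma), and the median log2 fold change was 0.40. Its entries were taken by symbol, and some under MITF are described as transcription factor E3 and some under PMEL as protein QNR-71-like. The 42 entries of this list summed to 519 to 559 FPKM in wild-type and to 602 to 822 FPKM in yellow mutant libraries, with an EDNRB copy and 2 tyrp1 copies listed at 0. mitfa (gene 110494592), the lead transcription factor of melanophores, had the smallest p in it, at 2.29 ± 0.45 and 5.08 ± 0.422 FPKM (SD, n = 3 each; limma, Benjamini-Hochberg adjusted p = 0.178). In the xanthophore list, the genes of yellow pigment cells, 12 of 17 genes tested were higher, 9 with an unadjusted p under 0.05, and 1 passed the threshold (limma), and the median log2 fold change was 0.50. That gene, Gch1 (gene 110502330), encodes the first enzyme of pteridine pigment synthesis and rose from 12.529, 12.85 and 13.611 FPKM to 50.225, 49.078 and 66.205 FPKM in replicates 1 to 3 (limma, Benjamini-Hochberg adjusted p = 0.0188). Its call was lost without wild-type replicate 1, 2 or 3 or yellow mutant replicate 3 (adjusted p = 0.0681, 0.149, 0.0867 and 0.118), with the replicate numbers as a block (0.0744) and with the depth covariate (0.0928), at 1.86 to 2.07 on the log2 scale when libraries were left out (limma). The other gch1 copies tested, genes 100136794 and 110497538, had log2 fold changes of -0.34 and 0.003 (limma, Benjamini-Hochberg adjusted p = 0.862 and 0.999). A further copy, gene 110498968, was below the filter. The 23 entries summed to 147 to 164 FPKM in wild-type and to 244 to 271 FPKM in yellow mutant libraries, with 2 SLC2A11 copies listed at 0. In bulk skin more cells of a type and more RNA per cell cannot be told apart, and the part of either cell type in the mc5ra value was not tested.

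Markers of other cells in the samples were read in the same way, and none of their genes passed over all genes. Here too, 53.0% of all genes tested were higher, and 3.41% were higher and 2.59% lower with an unadjusted p under 0.05 (limma). Iridophore genes had a median log2 fold change of 0.12 over 8 genes tested (0 at an unadjusted p under 0.05, limma), at 143 to 148 FPKM summed in wild-type and 148 to 185 FPKM in yellow mutant libraries, with paics the smallest p (limma, Benjamini-Hochberg adjusted p = 0.835). Keratinocyte genes had a median of 0.26 over 21 genes, of which 19 were higher, 2 with an unadjusted p under 0.05, and 2 lower, 1 with such a p. They were led by krt18 (gene 110536988, limma, Benjamini-Hochberg adjusted p = 0.641). Macrophage genes had a median of -0.04 over 10 genes, of which 5 were higher, and summed to 283 to 313 FPKM in wild-type and 269 to 348 FPKM in yellow mutant libraries. Of the higher genes 2 had an unadjusted p under 0.05 (limma). Both were csf1r1 copies (genes 110504828 and 100136949) that are in the xanthophore list as well. The smallest p was that of gene 110504828 (limma, Benjamini-Hochberg adjusted p = 0.471). Skeletal muscle genes had a median of 0.27 over 51 genes, of which 39 were higher, 6 with an unadjusted p under 0.05, and 12 lower, 0 with such a p (limma). They summed to 1501 to 4019 FPKM in wild-type and 2158 to 5533 FPKM in yellow mutant libraries, led by Tnni2 (gene 110526837; limma, Benjamini-Hochberg adjusted p = 0.748).

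Over all genes tested 47.0% were lower, and 2.59% were lower and 3.41% higher with an unadjusted p under 0.05 (limma). Adipocyte genes had a median of -0.40 over 14 genes, of which 13 were lower, 3 of them with an unadjusted p under 0.05, and they summed to 299 to 491 and 136 to 307 FPKM. fabp4b (gene 110505566) went the other way, at 0.465 ± 0.152 and 5.70 ± 2.91 FPKM (SD, n = 3 each; limma, Benjamini-Hochberg adjusted p = 0.231). Neuroendocrine and nerve genes, as listed here, are not particular to cells that carry Agrp or pomc. Their median was 0.03 over 8 genes tested, of which 4 were higher, 1 with an unadjusted p under 0.05. Of their 33 entries 8 were listed at 0, and the list summed to 75.2 to 124 and 80.8 to 95.3 FPKM. npy (gene 100135894), the neuropeptide that neurons of the mammalian hypothalamus release together with Agrp, measured 0.984, 1.566 and 1.634 FPKM in wild-type replicates 1 to 3, against 4.787, 3.947 and 4.25 FPKM in yellow mutant replicates 1 to 3. The genotypes did not overlap, and the log2 fold change of 1.16 missed the threshold (limma, Benjamini-Hochberg adjusted p = 0.0832). Among all genes tested, 6.07% had the yellow mutant libraries entirely above and 4.92% entirely below the wild-type libraries. The part of these cell types in the values of the receptors and agouti genes was not tested.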

How the data were processed

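The table held FPKM values made by the authors for 6 RNA-Seq libraries, per the file headers, beside a log2 fold change and an FDR (an adjusted p-value, from a test that no header names) deposited by the authors. Tools named per the submitters' processing notes include TopHat2 (2.1.1) and Bowtie2 (2.2.8). The genome build, like the counter, was not given in the sources used here. Values of miRNA libraries were not used here.

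Genes with at least 0.5 FPKM in at least 3 of 6 libraries entered a two-sided test of genotype on log2(FPKM + 1), with limma 3.58.1 (R 4.3.3; eBayes with trend and robust). The p-values of all 27268 genes were adjusted by Benjamini-Hochberg, and calls were made at 0.05. This scale understates the change of low genes. An exact permutation test of 3 against 3 cannot go below 0.1 and made no calls. The procedure was tested on simulated data first. It recovered 47% of 100 genes shifted by 1 and 84% of 100 genes shifted by 2 on the log2 scale, with 8 false calls. The shifted genes were drawn only from those whose mean log2(FPKM + 1) was above log2(3). mc2r, asip2b, mc1r (gene 100499611) and both Agrp copies lay below that level, where recovery was not measured. A gene that did not pass may therefore still differ.

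The members, the lists and the rules for named genes were chosen with earlier results of these data known. Named were every member, of each list up to 4 genes past the threshold, otherwise the gene of smallest p, and the 5 nearest profiles of 3 members, of which 1 is not reported here. Others named for their role (pcsk2, pam, ATRN, MCHR2 of gene 110504489, corin) were chosen after their values were seen. So were further PCSK1, PCSK2 and gch1 copies and the neighbours CDH10, CTRB1 and zdhhc1. Symbols of other genes that the copy endings of the list rule caught, such as CPEB2, CDH11 and SYT11, were left out. Relative depth came from low values of 0.02 to 0.3 FPKM. Alternatives were the pseudocount, the filter, 2 scalings, the variance model, a replicate block, depth as a covariate and leaving out each library.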

Additional observations from a re-analysis of the deposited data

How the results depend on the processing

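Of 27268 genes 9 were called, and the count was 6 to 13 with another pseudocount, filter, scaling or variance model. It was 0 with the replicate block (1795 at an unadjusted p under 0.05, limma) and 0 with the depth covariate (2042), and 0 to 14 when libraries were left out. The count of members called was 1, 0 with the replicate block, 0 with the depth covariate, and 0 to 1 when libraries were left out, while mc5ra stayed higher in all 14 alternatives, at 1.46 to 2.01 on the log2 scale (adjusted p = 0.0171 to 0.134, 0.0808 with the block). The mc5ra call was lost without each wild-type library and without yellow mutant replicate 3, and the cause was not tested. Over all genes 1 call was left without wild-type replicate 2. There were 0 without wild-type replicate 1, wild-type replicate 3 or yellow mutant replicate 3. mc2r changed sign with the depth covariate, at -0.66, and ranged from -0.52 to 0.54 when libraries were left out, and mc1r (gene 100499611) ranged from -0.16 to 0.027, the highest without wild-type replicate 3. The other members tested kept their sign. The titles give both genotypes replicate numbers 1 to 3, and deviations of same-numbered libraries correlated across genes at 0.12, -0.21 and 0.16, so the numbers were not taken as pairs. Not every library correlated best with its own number. Whether depth has a part in the low values of the members under the filter was not tested.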
